A study of Arabidopsis thaliana with 12 samples.

Results

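A set of anion transport genes was read in roots of Arabidopsis thaliana. It holds 45 of the 2424 loci that stand in any of 3 deposited tables. A locus was taken when its gene ontology column carried the anion transport term and not the defence response term, and when it was not among 13 loci set aside by name. The rule itself uses no expression value, but it was set with earlier results of these data known. A locus could be chosen only if the authors had called it in at least 1 line. RNA was sequenced from roots of 8-day-old seedlings raised in darkness on MS medium, with 3 libraries for each of 4 genotypes. Col (Col-0) is the wild type, LBD29-OE carries Pro35S:LBD29-6Gly, MYB2-OE carries Pro35S:MYB2, and MYB2-SRDX carries Pro35S:MYB2-SRDX, a fusion of MYB2 to a short repression domain that is labelled dominant negative. The 35S promoter is active in most cell types, so the transgenes were not limited to the cells that normally express LBD29 or MYB2. The labels do not say how many independent transformants stand behind a genotype or whether its 3 libraries came from separate cultures. Each table compares 1 line with the same 3 Col libraries and lists only genes called by the authors, and genes outside a table lack library values for its line. Values are FPKM, fragment counts scaled to transcript length and to the library total. Sequencing depth per library is not known from them.

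Plant cells take up nitrate, phosphate, sulfate and chloride as anions against an electrical gradient, usually by carriers that move protons along with them, and release anions through channels when the gradient allows. The ontology term also covers carboxylates such as malate and citrate, amino acids, which are organic anions in this scheme, and auxin, gibberellin and fatty acids. In roots these carriers take up soil nutrients, load the xylem, fill vacuoles and plastids, and exude carboxylates into the soil. LBD29 is a LATERAL ORGAN BOUNDARIES DOMAIN transcription factor of lateral root formation, and MYB2 is a MYB transcription factor of abscisic acid and water stress responses.

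Some of the windows before the gene starts are shown here because their genes were called in a MYB2 line. AT1G69480 and AT5G15240 were called higher in MYB2-OE and lower in MYB2-SRDX, UMAMIT14 was called lower in both, and AT1G08230 and AT1G51340 were called higher in MYB2-OE and hold TAACTG, a binding sequence known for MYB2. Each window is the 250 bases before the annotated gene start on the strand of the gene, from RefSeq on assembly TAIR10.1, and overlaps no other annotated gene. The deposited files give no coordinates, and their build is named TAIR10 in the submitters' processing notes. The windows lie at chr1:26117956-26118205 (minus strand) for AT1G69480, chr5:4947327-4947576 (plus) for AT5G15240, chr2:16493344-16493593 (minus) for UMAMIT14, chr1:2586970-2587219 (minus) for AT1G08230 and chr1:19030748-19030997 (plus) for AT1G51340. Capitals mark TAACTG or its reverse complement CAGTTA, and ACGTG or its reverse complement CACGT, the core of abscisic acid response elements.
AT1G69480: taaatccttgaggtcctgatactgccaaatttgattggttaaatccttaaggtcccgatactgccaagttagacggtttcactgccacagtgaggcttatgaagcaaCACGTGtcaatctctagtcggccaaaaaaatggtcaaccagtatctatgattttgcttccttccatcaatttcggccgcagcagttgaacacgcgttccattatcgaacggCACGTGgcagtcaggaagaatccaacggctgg
AT5G15240: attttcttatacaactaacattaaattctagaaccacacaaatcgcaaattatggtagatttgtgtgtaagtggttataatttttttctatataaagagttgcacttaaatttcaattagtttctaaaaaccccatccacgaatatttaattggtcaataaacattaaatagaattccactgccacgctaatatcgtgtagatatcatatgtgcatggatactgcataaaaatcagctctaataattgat
UMAMIT14: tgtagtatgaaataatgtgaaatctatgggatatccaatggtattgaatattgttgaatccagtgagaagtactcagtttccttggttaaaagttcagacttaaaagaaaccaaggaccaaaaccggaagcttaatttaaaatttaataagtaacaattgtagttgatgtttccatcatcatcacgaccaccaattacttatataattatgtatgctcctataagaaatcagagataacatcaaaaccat
AT1G08230: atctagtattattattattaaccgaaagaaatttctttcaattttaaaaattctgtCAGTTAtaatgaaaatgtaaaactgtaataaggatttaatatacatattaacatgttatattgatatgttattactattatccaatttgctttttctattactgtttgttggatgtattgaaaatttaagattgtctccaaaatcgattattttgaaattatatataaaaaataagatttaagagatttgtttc
AT1G51340: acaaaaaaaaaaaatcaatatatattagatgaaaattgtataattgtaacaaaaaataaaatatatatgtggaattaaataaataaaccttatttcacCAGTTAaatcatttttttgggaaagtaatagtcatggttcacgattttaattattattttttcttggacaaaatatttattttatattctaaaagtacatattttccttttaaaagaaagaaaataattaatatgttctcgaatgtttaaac

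TAACTG on either strand was found in 5 of the 45 windows (11.1%), against 8.12% of 27443 windows of the same length before all protein-coding genes. The other 3 genes with it were the nitrate carrier gene NRT2.7, the auxin carrier gene LAX1 and the molybdate carrier gene MOT1. In MYB2-OE the site stood before 3 of 13 higher members and 1 of 13 lower members (LAX1). In MYB2-SRDX it stood before 0 of 5 higher members and 1 of 19 lower members (MOT1). GCGGCG, a sequence bound by LBD proteins, was found in 0 of 45 windows and in 1.56% of all windows. ACGTG, a motif chosen after the sequences had been seen, stood in 9 windows (20%) against 22.9% of all. AT1G69480 held it on both strands within 2 copies of CACGTG that begin at positions -143 and -32 from the gene start. These matches describe letters in a window and do not show binding.

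Some libraries stood apart. MYB2-OE replicate 2 held 109 FPKM of LBD29, where replicates 1 and 3 held 1.82 and 1.93 FPKM, and less MYB2 (375 FPKM against 636 and 585). Among the 13 lower members of MYB2-OE it was the library closest to Col in 12, and in 76.0% of all lower genes of that table. MYB2-SRDX library 1, named here by the digit its column ends in, held seed storage and oil body transcripts: the 3 listed of 4 seed markers summed to 3.98 FPKM there and to 0 in the other libraries of the line. Its 3 listed green tissue markers of 7 summed to 26.0 FPKM, while libraries 2 and 3 held 1.59 and 1.19 FPKM and Col held 6.02 to 9.21 FPKM. RBCS2B and RBCS1B stood above Col there (9.17 and 15.7 FPKM), and LHCB2.1 below it (1.13 FPKM against 4.11 to 5.28 FPKM). In LBD29-OE replicate 2 the 5 listed green tissue markers summed to 228 FPKM against 9.88 and 12.9 FPKM, with 96.7 to 126 FPKM in Col. RBCS1A, which made up most of the Col sum, held 91.0 FPKM in that replicate, inside its Col range of 88.6 to 120 FPKM. CAB2, RBCS2B, RBCS3B and RBCS1B stood above Col there. Of 14 markers of endodermis, root hair, xylem, phloem and root cap, 0 stood in any table, so the labelled tissue could not be checked against them. The part of these libraries in the results below was not tested. Values without them are given where they moved a fold across 2-fold or by much.

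The members were called lower more often than higher in MYB2-SRDX. There 19 of 24 listed members were lower and 5 were higher, so 79.2% were lower, beside 47.1% lower and 52.9% higher among all 1045 genes in that table. The abundant channel gene SLAH3, the amino acid carrier genes AAP4 and UMAMIT11 and the anion exchanger gene CLC-B were among the lower ones. In MYB2-OE the 26 listed members split evenly, 13 higher and 13 lower, beside 52.4% higher and 47.6% lower in its table of 1271 genes. LBD29-OE had 9 listed members, 3 higher and 6 lower (66.7% lower), beside 58.2% lower and 41.8% higher among its 802 genes. No test of these shares is given, because members were listed only where they had been called. In RNA of whole roots, fewer cells of a type and less RNA per cell cannot be told apart.

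Over all 2424 loci, 43.1% were called in MYB2-SRDX (20.3% lower, 22.8% higher), 52.4% in MYB2-OE (25.0% lower, 27.5% higher) and 33.1% in LBD29-OE (19.3% lower, 13.8% higher). Of the 45 members, 32 stood in 1 table, 12 in 2 and 1, PHT1;9, in all 3. In MYB2-SRDX all 3 libraries lay below all 3 Col libraries in 17 of the 19 lower members, beside 88.8% of all lower genes, and above them in 4 of the 5 higher members, beside 62.4%, so 21 of 24 members did not overlap, beside 74.8%. In MYB2-OE the libraries did not overlap Col in 10 of 13 lower members (89.4% of all lower genes) and in 10 of 13 higher members (93.7%). In LBD29-OE they did not overlap in 5 of 6 lower (89.5%) and 3 of 3 higher members (79.1%), together 8 of 9 (85.2%). An exact two-sided permutation test of 3 libraries against 3 cannot go below a p of 0.1, so no such test is given for single genes.

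The median size of the members' calls was close to or below that of all called genes. Lower members of MYB2-SRDX had a median log2 fold change of -1.60 in the authors' deposited table, beside -1.50 for all lower genes. The corresponding medians in the authors' deposited table were -1.43 and -1.45 for lower genes of MYB2-OE and 1.38 and 1.64 for its higher genes. Folds with 1 library left out were recomputed here and below on the log2(FPKM + 0.1) scale, which by itself lowers folds of low genes. On that scale with all libraries, 17 members were lower in MYB2-SRDX at 2-fold or more, and 16 to 18 with 1 library left out. The 5 higher members of MYB2-SRDX stayed 5 with all libraries and went to 1, LrgB, without library 1. The higher members of MYB2-OE were 11 with all libraries and 7 without Col replicate 3 or without MYB2-OE replicate 1.

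**Figure D1:**
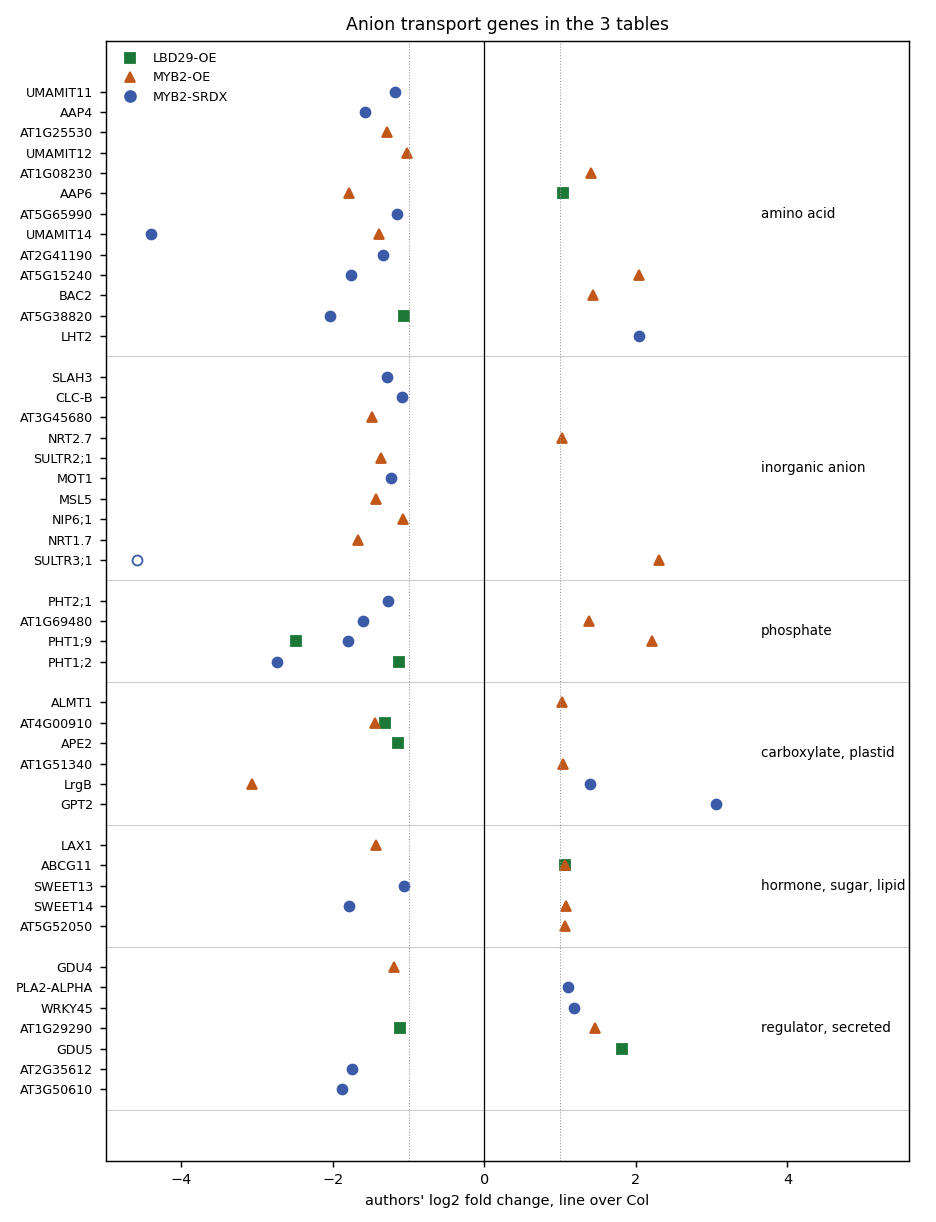
The authors' log2 fold change over Col (x axis) for each of the 45 members (y axis), grouped by role, with squares for LBD29-OE, triangles for MYB2-OE and circles for MYB2-SRDX. Dotted lines mark a 2-fold change, and the open circle is SULTR3;1, which is listed at 0 FPKM in MYB2-SRDX, so that its position is no measured fold. Circles lie left of 0 for 19 of 24 members.

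Carriers of amino acids and related compounds were the largest group, with 13 members. In MYB2-SRDX 7 were lower and 1 higher, in MYB2-OE 4 were lower and 3 higher, and in LBD29-OE 1 was lower and 1 higher. AAP4 encodes an amino acid permease that imports neutral amino acids together with protons. It measured 49.0, 53.5 and 54.8 FPKM in Col and 21.4, 15.2 and 16.4 FPKM in MYB2-SRDX, so the groups were well apart. The means were 52.4 ± 3.01 and 17.6 ± 3.25 FPKM (SD, n = 3), a log2 fold change of -1.57 in the authors' deposited table. UMAMIT11 belongs to the UMAMIT family of amino acid exporters. Its Col libraries held 87.2, 76.9 and 75.9 FPKM and its MYB2-SRDX libraries 50.4, 28.0 and 27.1 FPKM, so the groups stood apart and library 1 was nearest to Col. The fall was a log2 of -1.18 in the authors' deposited table, and -1.53 without library 1.

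UMAMIT14, of the same exporter family and known for amino acid unloading from the phloem in roots, had the deepest fall of any member with a measurable level. It measured 7.27, 6.66 and 3.68 FPKM in Col and 0.24, 0.30 and 0.30 FPKM in MYB2-SRDX, or 5.87 ± 1.92 and 0.280 ± 0.0346 FPKM (SD, n = 3). The authors' deposited table gave a log2 fold change of -4.41 with a Q of 1.34e-131. Such Q-values were also very small where libraries overlapped, as for ALMT1 in MYB2-OE (Q of 5.88e-130). They are therefore not read as the spread between libraries. In MYB2-OE UMAMIT14 was also called lower, with 1.24, 4.47 and 0.98 FPKM. There replicate 2 lay within the Col range and the other libraries below it, and the log2 fold was -2.30 without replicate 2, beside -1.39 in the authors' deposited table. UMAMIT12, a further family member, was lower in MYB2-OE, with 8.24, 12.5 and 8.79 FPKM against 18.4, 20.2 and 21.6 FPKM in Col. The authors' deposited table gave it a log2 of -1.03. The groups did not overlap, yet its log2 fold was between -0.91 and -0.96 without MYB2-OE replicate 1, MYB2-OE replicate 3 or Col replicate 3, each left out in turn.

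AAP6, an amino acid permease gene with high affinity and known from xylem parenchyma, was called in opposite directions in LBD29-OE and MYB2-OE. Col held 6.75, 6.21 and 4.02 FPKM. LBD29-OE held 10.2, 9.77 and 14.9 FPKM, all above Col, with a log2 of 1.04 in the authors' deposited table. MYB2-OE held 0.29, 4.26 and 0.34 FPKM, so 2 libraries lay far below Col and replicate 2 lay inside its range. Without MYB2-OE replicate 2 its log2 fold was -3.79, and without LBD29-OE replicate 3 or Col replicate 3 its rise in LBD29-OE was 0.81 or 0.83.

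Several members of the transmembrane amino acid transporter family carry a locus name only. AT1G08230, annotated with transport of gamma-aminobutyric acid, measured 4.53, 5.79 and 6.28 FPKM in Col and 16.8, 12.4 and 14.6 FPKM in MYB2-OE, and the groups did not overlap. AT1G25530 measured 22.0, 20.0 and 22.6 FPKM in Col and 5.59, 12.9 and 8.00 FPKM in MYB2-OE, again without overlap. AT5G15240 was low in Col at 0.79, 0.81 and 0.90 FPKM. It measured 4.23, 2.37 and 3.46 FPKM in MYB2-OE and 0.12, 0.45 and 0.17 FPKM in MYB2-SRDX, so that the MYB2-OE libraries were all above and the MYB2-SRDX libraries all below Col. AT5G38820 measured 1.25, 1.93 and 2.17 FPKM in Col, 1.03, 1.00 and 0.62 FPKM in the LBD29-OE libraries and 0.35, 0.40 and 0.49 FPKM in MYB2-SRDX. The log2 fold changes in the authors' deposited table were 1.41 for AT1G08230, -1.29 for AT1G25530, 2.04 and -1.76 for AT5G15240 and -1.06 and -2.04 for AT5G38820, the paired values in the order of the lines just given. All libraries of both lines lay below Col in AT5G38820. On the log2(FPKM + 0.1) scale its LBD29-OE fold was already -0.94 with all libraries, and it was -0.76 without LBD29-OE replicate 3 and -0.78 without Col replicate 3. Without MYB2-OE replicate 2 the fold of AT1G25530 was -1.65.

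The remaining 4 genes of the group were called in 1 line each. AT2G41190 and AT5G65990, both annotated to the vacuole membrane, were lower in MYB2-SRDX. The first went from 5.30 ± 0.739 to 2.09 ± 0.365 FPKM, the other from 9.67 ± 0.906 to 4.34 ± 1.78 FPKM (SD, n = 3). AT5G65990 held 6.40 FPKM in library 1 against 3.29 and 3.33 FPKM, and stood at a log2 of -0.98 without library 2 or without library 3 and -1.52 without library 1. BAC2, a mitochondrial carrier of basic amino acids, was higher in MYB2-OE, from 0.973 ± 0.130 to 2.62 ± 0.145 FPKM (SD, n = 3). LHT2, an amino acid carrier gene best known from flowers, was called higher in MYB2-SRDX at no more than 0.38 FPKM in any library, and on the log2(FPKM + 0.1) scale its fold was 1.16 with all libraries and 0.96 without library 1.

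**Figure D2:**
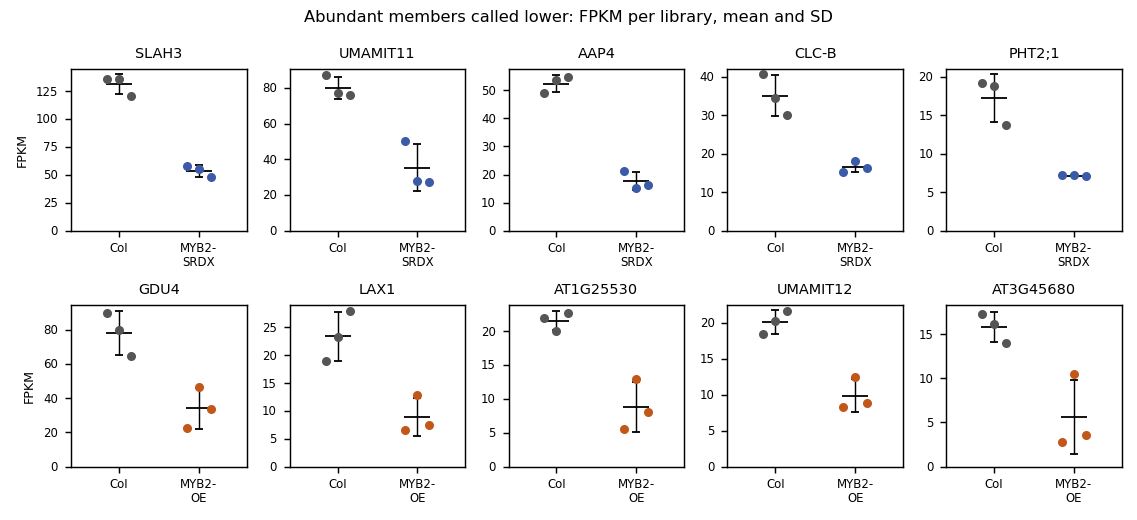
FPKM per library (y axis, from 0) for 10 abundant members called lower, 5 in MYB2-SRDX (upper row) and 5 in MYB2-OE (lower row), with points for the 3 libraries of a group and bars for the mean and SD. The libraries of the line lie below all Col libraries in each panel, and MYB2-OE replicate 2, the middle point of its group, is the nearest to Col in the lower row.

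Channels and carriers of nitrate, chloride, sulfate and other inorganic anions made up 10 members. In MYB2-SRDX 4 were lower and 0 higher, in MYB2-OE 5 were lower and 2 higher, and LBD29-OE listed none. SLAH3, a slow anion channel of the plasma membrane that passes nitrate and chloride, was the most abundant member. It measured 136, 136 and 121 FPKM in Col and 57.8, 54.7 and 47.8 FPKM in MYB2-SRDX. The groups were far apart relative to their spread, at 131 ± 8.92 and 53.4 ± 5.09 FPKM (SD, n = 3), a log2 of -1.29 in the authors' deposited table. CLC-B, a proton-coupled anion exchanger of the vacuole membrane, measured 40.7, 34.5 and 30.1 FPKM in Col and 15.3, 18.0 and 16.3 FPKM in MYB2-SRDX. All MYB2-SRDX libraries were lower, at a log2 of -1.08 in the authors' deposited table, and the log2 fold was -0.96 without Col replicate 1. MOT1, a high-affinity molybdate carrier gene, went from 5.26 ± 0.129 to 2.25 ± 0.153 FPKM in MYB2-SRDX (SD, n = 3).

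The 3 members of the nitrate carrier families NRT2 and NPF were listed in the MYB2-OE table, in both directions. NRT2.7, which loads nitrate into seed vacuoles, measured 7.49, 6.92 and 6.38 FPKM in Col and 16.2, 12.1 and 13.8 FPKM in MYB2-OE. The groups did not overlap, but the log2 fold was 0.89 without MYB2-OE replicate 1 and 0.95 without Col replicate 3. NRT1.7, a plasma membrane carrier that moves nitrate out of older leaves through the phloem, fell from 3.24 ± 0.167 to 1.02 ± 0.335 FPKM (SD, n = 3). AT3G45680, a major facilitator superfamily gene annotated with nitrate transport, measured 17.3, 16.2 and 13.99 FPKM in Col and 2.80, 10.5 and 3.62 FPKM in MYB2-OE. It was lower in all 3 libraries and least so in replicate 2, without which its log2 fold was -2.27.

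Sulfate carriers split by level. SULTR2;1, a low-affinity carrier gene of vascular tissue, measured 8.20, 7.11 and 4.72 FPKM in Col and 1.46, 5.33 and 0.96 FPKM in MYB2-OE. Replicate 2 lay inside the Col range, and the log2 fold was -2.37 without it and -0.96 without replicate 3. SULTR3;1, annotated to the plastid and the plasma membrane, was near the bottom of the scale, with 0.06 to 0.10 FPKM in Col, 0.35 to 0.45 FPKM in MYB2-OE and 0 in all 3 MYB2-SRDX libraries. No fold is given against the libraries listed at 0. The mechanosensitive channel gene MSL5 and NIP6;1, a boric acid channel gene, were lower in MYB2-OE. MSL5 went from 4.31 ± 0.965 to 1.60 ± 0.575 FPKM, NIP6;1 from 3.52 ± 0.346 to 1.67 ± 0.807 FPKM (SD, n = 3). NIP6;1 stood under 2-fold, at log2 values of -0.78 to -0.98, without MYB2-OE replicate 1, MYB2-OE replicate 3 or Col replicate 3.

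All 4 members grouped as phosphate carriers were called lower in MYB2-SRDX, beside 47.1% of all genes in its table. A gene could enter this group only if it was called in at least 1 line. Of 9 PHT1 genes on a family list, 2 were lower in MYB2-SRDX. PHT1;9 and AT1G69480 were called higher in MYB2-OE. PHT1;9, a high-affinity root phosphate carrier gene, measured 0.58, 0.31 and 0.45 FPKM in Col. It measured 0.10, 0.07 and 0.07 FPKM in LBD29-OE, 2.03, 1.51 and 2.65 FPKM in MYB2-OE and 0.31, 0.02 and 0.05 FPKM in MYB2-SRDX. Every MYB2-OE library was above and every LBD29-OE library below Col, while MYB2-SRDX library 1 equalled the lowest Col library. The log2 fold changes in the authors' deposited table were -2.49, 2.21 and -1.80 in that order. On the log2(FPKM + 0.1) scale they were -1.60, 1.98 and -1.27, and the last was -2.02 without MYB2-SRDX library 1 and -0.97 without library 2. AT1G69480 encodes an EXS domain protein of the group that includes phosphate exporters. It measured 0.92, 0.89 and 1.31 FPKM in Col, 3.01, 2.51 and 2.60 FPKM in MYB2-OE and 0.29, 0.33 and 0.41 FPKM in MYB2-SRDX, with no overlap on either side and log2 values of 1.38 and -1.60 in the authors' deposited table.

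PHT2;1, a phosphate carrier of the plastid inner envelope, was the most abundant of these genes. It measured 19.2, 18.7 and 13.7 FPKM in Col and 7.16, 7.19 and 7.04 FPKM in MYB2-SRDX, a fall of 1.27 on the log2 scale in the authors' deposited table. The MYB2-SRDX libraries were nearly equal and all below Col. PHT1;2 encodes a root phosphate uptake carrier and has near-identical neighbours in its family, so reads may have been split between copies. It measured 2.22, 1.42 and 1.13 FPKM in Col, 1.21, 0.77 and 0.19 FPKM in the LBD29-OE libraries and 0.15, 0.17 and 0.35 FPKM in MYB2-SRDX. LBD29-OE overlapped Col and MYB2-SRDX did not, and the authors' deposited table gave log2 values of -1.13 and -2.74. On the log2(FPKM + 0.1) scale the LBD29-OE fold was -1.04 with all libraries, -0.63 without LBD29-OE replicate 3 and -0.74 without Col replicate 1.

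**Figure D3:**
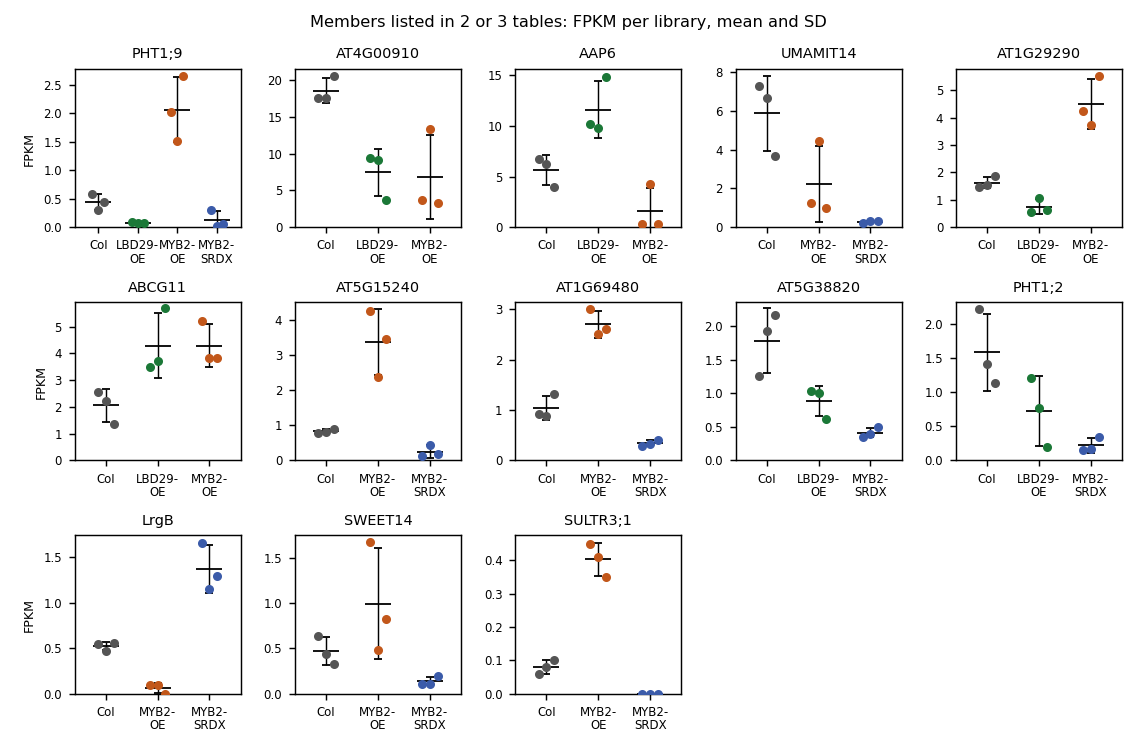
FPKM per library (y axis, from 0) for the 13 members listed in 2 or 3 tables, with points for libraries and bars for the mean and SD of Col and of each line that listed the gene. The same Col libraries serve every line. AT1G69480 and AT5G15240 lie above Col in MYB2-OE and below it in MYB2-SRDX, and LrgB the other way round.

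Carboxylate carriers and plastid carriers numbered 6. ALMT1, a malate channel gene of the root known from aluminium tolerance, was the most abundant of the members called higher in any line. It measured 18.1, 13 and 8.34 FPKM in Col and 41.1, 17.8 and 21.3 FPKM in MYB2-OE. The groups overlapped, and the log2 fold was 0.57 without MYB2-OE replicate 1 and 0.78 without Col replicate 3. AT4G00910, of the same malate channel family and annotated to the vacuole membrane, was lower in LBD29-OE and in MYB2-OE. Col held 17.5, 17.6 and 20.6 FPKM, LBD29-OE 9.44, 9.20 and 3.75 FPKM and MYB2-OE 3.72, 13.4 and 3.30 FPKM. All 6 libraries of the lines lay below Col. The authors' deposited table gave log2 values of -1.31 and -1.45. The LBD29-OE log2 fold was -0.99 without LBD29-OE replicate 3, and the MYB2-OE fold was -2.37 without MYB2-OE replicate 2.

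AT1G51340, a MATE efflux gene annotated with tricarboxylic acid transport, was higher in MYB2-OE, with 18.5, 11.4 and 10.8 FPKM against 6.92, 6.91 and 4.98 FPKM in Col. Groups were apart, and the log2 fold was 0.81 without MYB2-OE replicate 1 and 0.96 without Col replicate 3. LrgB, the gene of the glycolate and glycerate carrier of the plastid inner envelope, measured 0.54, 0.47 and 0.56 FPKM in Col, 0.09, 0.09 and 0 FPKM in MYB2-OE and 1.66, 1.15 and 1.29 FPKM in MYB2-SRDX. Its log2 values in the authors' deposited table were -3.06 and 1.39, and -1.96 and 1.23 on the log2(FPKM + 0.1) scale. It lay below Col in every MYB2-OE library and above it in every MYB2-SRDX library. APE2, the triose phosphate translocator gene of the plastid envelope, was lower in LBD29-OE, with 5.13, 9.23 and 5.44 FPKM against 14.87, 14.98 and 13.79 FPKM in Col. Replicate 2, which also had the highest green tissue marker sum of the line, was nearest to Col, and a link between the 2 was not tested. The log2 fold was -1.44 without replicate 2 and -0.98 without replicate 1. GPT2, a glucose 6-phosphate translocator gene, was called higher in MYB2-SRDX on 0.55 FPKM in library 1 against 0.08 and 0.05 FPKM. Col reached 0.05 FPKM, and the fold on the log2(FPKM + 0.1) scale was 1.37 with all libraries and 0.38 without library 1.

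Carriers of hormones, sugars and lipids that the term covers were 5 members, called mostly in MYB2-OE. LAX1, an auxin influx carrier gene, measured 19.0, 23.3 and 27.9 FPKM in Col and 6.49, 12.9 and 7.51 FPKM in MYB2-OE, and was lower in all 3 libraries, at a log2 of -1.43 in the authors' deposited table and -1.73 without replicate 2. ABCG11, a transporter gene for cutin and wax lipids, measured 2.57, 2.23 and 1.38 FPKM in Col, 3.48, 3.70 and 5.71 FPKM in the LBD29-OE libraries and 5.21, 3.83 and 3.82 FPKM in MYB2-OE. Both lines lay above Col in every library, each at a log2 of 1.06 in the authors' deposited table. Its log2 folds were 0.77 without LBD29-OE replicate 3, 0.86 without MYB2-OE replicate 1, and 0.81 in each line without Col replicate 3.

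SWEET13 and SWEET14, sugar carriers that also move gibberellin, were low. SWEET14 measured 0.64, 0.44 and 0.33 FPKM in Col, 1.67, 0.48 and 0.82 FPKM in MYB2-OE and 0.11, 0.11 and 0.19 FPKM in MYB2-SRDX. MYB2-OE overlapped Col and MYB2-SRDX did not, and the MYB2-OE fold on the log2(FPKM + 0.1) scale was 0.94 with all libraries and 0.40 without replicate 1. SWEET13 was called lower in MYB2-SRDX with overlapping groups, 0.38 to 0.67 FPKM against 0.48 to 1.70 FPKM, and its fold on the log2(FPKM + 0.1) scale was -0.94 with all libraries and -0.61 without Col replicate 1. AT5G52050 (DTX50), an abscisic acid efflux carrier gene, was called higher in MYB2-OE with overlap, at 0.41 to 0.99 FPKM against 0.24 to 0.46 FPKM. Its fold on the log2(FPKM + 0.1) scale was 0.87 with all libraries and 0.60 without MYB2-OE replicate 1.

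Regulators and secreted proteins, which carry the term without being carriers, were 7 members. GDU4, a GLUTAMINE DUMPER gene whose family stimulates amino acid export, was abundant in Col at 90.1, 79.6 and 64.6 FPKM and lower in MYB2-OE at 22.5, 46.3 and 33.4 FPKM. The groups did not overlap, and the log2 fold was -0.97 without MYB2-OE replicate 1. GDU5, of the same family, was higher in LBD29-OE, from 1.12 ± 0.133 to 3.96 ± 0.727 FPKM (SD, n = 3), the largest rise of a member in that line at a log2 of 1.82 in the authors' deposited table. WRKY45, a transcription factor gene that activates phosphate uptake, was called higher in MYB2-SRDX with 17.2, 7.82 and 8.13 FPKM against 4.08, 3.69 and 6.88 FPKM in Col. All 3 libraries were above Col and library 1 was highest, and the log2 fold was 0.70 without it. PLA2-ALPHA, a secreted phospholipase gene annotated with fatty acid transport, measured 14.03, 13.2 and 11.4 FPKM in MYB2-SRDX and 6.63, 6.38 and 5.85 FPKM in Col. It stood at a log2 of 0.95 without library 1 and 0.97 without Col replicate 3.

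AT1G29290, AT2G35612 and AT3G50610 are annotated to the apoplast and to nitrate transport. AT1G29290 measured 1.48, 1.56 and 1.86 FPKM in Col, 0.56, 1.06 and 0.63 FPKM in the LBD29-OE libraries and 4.23, 3.74 and 5.53 FPKM in MYB2-OE. Every LBD29-OE library was below and every MYB2-OE library above Col. Their log2 values stood at -1.12 and 1.46 by the authors' deposited table. On the log2(FPKM + 0.1) scale the LBD29-OE fold was -1.03 with all libraries and -0.88 to -0.93 without LBD29-OE replicate 1, LBD29-OE replicate 3 or Col replicate 3. AT2G35612 and AT3G50610 were lower in MYB2-SRDX without overlap. AT2G35612 went from 2.94 ± 0.760 to 0.877 ± 0.355 FPKM, AT3G50610 from 0.773 ± 0.325 to 0.220 ± 0.104 FPKM (SD, n = 3).

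**Figure D4:**
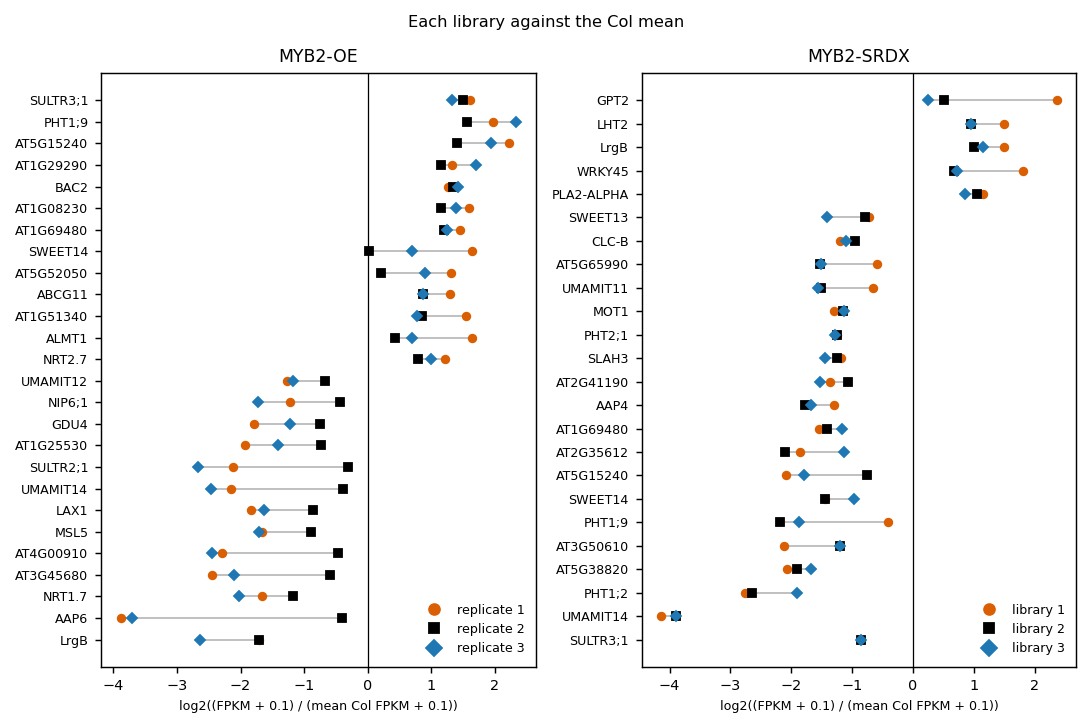
Each library of MYB2-OE (left) and MYB2-SRDX (right) against the Col mean, as log2((FPKM + 0.1)/(mean Col FPKM + 0.1)) on the x axis, for the members each table lists (y axis). Replicate 2 of MYB2-OE lies nearest to 0 in 12 of 13 lower members, and library 1 of MYB2-SRDX lies farthest from 0 in all 5 higher members.

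Both MYB2 tables repeat the authors' LBD29-OE statistics for their own genes, which gives an LBD29-OE value for the 36 members outside the LBD29-OE table. Their median log2 fold change in the authors' deposited table was -0.005, with 17 above 0 and 19 below (52.8% below), beside a median of -0.096 and 57.3% below 0 for the 1533 such genes. A Q under 0.001 was given for 17 of the 36 (47.2%), beside 36.4% of such genes. These Q-values, too, are not read as the spread between libraries. Just outside the 2-fold threshold of the authors' deposited table were LrgB (-0.99), WRKY45 (-0.93), LAX1 (-0.86) and ALMT1 (0.85), and just inside it AAP6 (1.04), ABCG11 (1.06) and AT5G38820 (-1.06). SLAH3 and AAP4, which were lower in MYB2-SRDX, had LBD29-OE log2 values of -0.72 and -0.79 in the authors' deposited table, and CLC-B and PHT2;1 had -0.002 and -0.12. AT5G15240 (-0.77) and AT2G35612 (-0.40) were also below 0. The other members lower in MYB2-SRDX and outside the LBD29-OE table were above 0, from AT3G50610 (0.03) to SWEET13 (0.82). UMAMIT11 (0.08) and UMAMIT14 (0.30) were among them. These comparisons share the Col libraries, so values set side by side are not independent.

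A list of 92 genes from 10 anion and amino acid carrier families held 2 higher and 5 lower genes in LBD29-OE, 5 higher and 7 lower in MYB2-OE, and 3 higher and 9 lower in MYB2-SRDX. These were 2.17% and 5.43%, 5.43% and 7.61%, and 3.26% and 9.78% of the list. Of 27444 annotated protein-coding genes, whether or not they are expressed in roots, 1.21% were called higher and 1.70% lower in LBD29-OE, 2.38% and 2.20% in MYB2-OE, and 2.01% and 1.79% in MYB2-SRDX. No test of the list was made. It was chosen with earlier results of these data known, and it holds members and some of the loci set aside by name. Its shares are therefore not read as an excess over all genes. The family counts that follow are of genes on the list, which need not be whole families. Of 9 PHT1 phosphate carriers, 2 were lower in LBD29-OE, 1 was higher in MYB2-OE and 2 were lower in MYB2-SRDX. Of 12 SULTR sulfate carriers, 0 were listed for LBD29-OE, 2 were higher and 1 lower in MYB2-OE, and 1 was higher and 2 lower in MYB2-SRDX. Of 17 amino acid permeases, 1 was higher in LBD29-OE (AAP6), 1 was lower in MYB2-OE (AAP6), and 1 was higher (LHT2) and 1 lower (AAP4) in MYB2-SRDX. Of 14 ALMT channels, 1 was lower in LBD29-OE, and 1 was higher and 1 lower in MYB2-OE. Among 7 CLC genes CLC-B was the 1 listed, and of 3 BOR borate carriers 0 were listed in any table.

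The transport term that chose the members largely brings membrane annotations with it. The plasma membrane was annotated for 27 of 45 (60%) beside 12.3% of all loci in the tables, the vacuole for 9 (20%) beside 4.29%, and the chloroplast for 5 (11.1%) beside 7.59%. Chromosomes 1 and 5 held 14 members each, beside 27.7% and 22.7% of all loci in the tables. Chromosome 2 held 8 (15.3% of all loci), chromosome 3 held 7 (18.4%) and chromosome 4 held 2 (15.3%).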

How the data were processed

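RNA of roots was sequenced in 12 libraries, 3 for each of 4 genotypes. The submitters' processing notes name the TAIR10 build. For the aligner and counting tool, the sources used here name none. The deposited FPKM values are per library, and the authors' log2 fold changes and Q-values compare each line with Col. Every listed gene passes an absolute log2 above 1 and a Q under 0.001, so the tables hold called genes only and the authors' calls are the main result. They also hold Col values that are identical between tables. Low FPKM values were compared with the lowest value of their gene, and 19.7% to 23.2% were whole multiples, beside 20% at the tolerance used. Libraries with different totals need not give whole multiples, so the check could not show depth. Depth and counting error are unknown.

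The members, role groups and gene lists were chosen with earlier results of these data known. The members named in full stand in at least 2 tables or reach a group mean of 10 FPKM (30 of 45), and the other 15 are given more briefly. Folds were recomputed with pseudocounts of 1 and 0.1. A first run of limma 3.58.1 (R 4.3.3) used simulated data with 200 changed genes and the others unchanged, unlike these tables of called genes. That run checked the code only. Limma was then run on log2(FPKM + 1) over each table with Benjamini-Hochberg adjustment. Those limma p-values rest on genes that had already passed a filter on the same contrast, and measure the spread between these libraries, which may be technical. Windows before gene starts come from RefSeq.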

Additional observations from a re-analysis of the deposited data

Results flagged for a closer look

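For 6 members the 3 libraries of 1 line all lay above Col and the 3 libraries of another all lay below it. The difference between the lines was not tested, and both use the same Col libraries. Opposite calls were common in the tables of both MYB2 lines, at 70.2% of the 299 genes in both, beside 6 of 7 members. They made up 13.4% of the 283 genes in the tables of LBD29-OE and MYB2-OE, beside 3 of 5 members. In the tables of LBD29-OE and MYB2-SRDX they made up 64.3% of the 227 genes in both, beside 0 of 3 members. These shares count opposite calls with or without overlap. The share of all genes with libraries apart on both sides is not given, so the count of 6 does not set the members apart from other genes. AT1G29290 had log2 fold changes in the authors' deposited table of -1.12 in LBD29-OE and 1.46 in MYB2-OE. PHT1;9 had -2.49 in LBD29-OE and 2.21 in MYB2-OE in the authors' deposited table. AT1G69480 had 1.38 in MYB2-OE and -1.60 in MYB2-SRDX, and AT5G15240 had 2.04 and -1.76, in the authors' deposited table. LrgB went the other way, with -3.06 in MYB2-OE and 1.39 in MYB2-SRDX in the authors' deposited table. SULTR3;1 had 2.30 in MYB2-OE in the authors' deposited table and is listed at 0 FPKM in every MYB2-SRDX library. It was near the bottom of the scale in Col as well, at 0.06 to 0.10 FPKM.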

How the results depend on the processing

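A pseudocount of 1 FPKM lowered the members at 2-fold or more from 3 to 1 higher and 6 to 2 lower in LBD29-OE, from 13 to 4 higher in MYB2-OE, and from 5 to 1 higher and 19 to 9 lower in MYB2-SRDX. Such a pseudocount shrinks folds of low genes by construction. A pseudocount of 0.1 FPKM gave 3 higher and 5 lower in LBD29-OE, 11 and 13 in MYB2-OE, and 5 and 17 in MYB2-SRDX. With that pseudocount, leaving out 1 library at a time gave 1 to 3 higher and 2 to 6 lower in LBD29-OE, with 1 higher without Col replicate 3 or LBD29-OE replicate 3 and 2 lower without LBD29-OE replicate 3. It gave 7 to 13 higher and 10 to 13 lower in MYB2-OE, and 1 to 5 higher and 16 to 18 lower in MYB2-SRDX. The 5 higher members of MYB2-SRDX became 3 with a group mean of at least 1 FPKM and 2 by limma at an adjusted p under 0.05. Its 19 lower members became 14 and 16 in the same way. Of 44 values of the members named in full, 0 reversed direction with either pseudocount or with 1 library left out. A pseudocount alone cannot reverse a direction.

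With the replicate number as a block, limma passed 2 higher and 5 lower members in LBD29-OE and 10 higher and 13 lower in MYB2-OE, against 3, 5, 11 and 13 without the block. Without the block 8 of 9 members passed in LBD29-OE, beside 79.9% of all its listed genes. In MYB2-OE 24 of 26 passed, beside 86.7%, and in MYB2-SRDX 18 of 24, beside 58.7%. The shares of all genes with the block are not given. Deviations of same-numbered libraries correlated at -0.0860 to 0.0210 for LBD29-OE and 0.0114 to 0.0194 for MYB2-OE, so the numbers were not taken as pairs. No paired analysis was possible for MYB2-SRDX because its columns carry no replicate number that the labels give. Depth is unknown, so genes under 1 FPKM are the least certain.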
